A study of Arabidopsis thaliana with 9 samples.

Results

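The genes followed were 10 that act late in root hair development: COW1, PRP1, PRP3, RBOHC, LRX1, LRX2, ADF8, COBL9, EXPA7 and EXPA18. They were picked by locus identifier, and all 10 were found among the 31124 loci of the deposited expression table. RNA came from the oscillation zone of Arabidopsis thaliana roots, the stretch behind the tip where auxin response cycles and where the sites of later lateral roots are laid down, cut out by hand at what the labels give as 7 dpi. The 3 groups, each of 3 independent samples, were a wild-type control of ecotype Col0 collected at the minimum of the oscillation, the potent line, which the series title ties to the auxin response repressor gene IAA18, and the arf7 line, affected in the auxin response factor gene ARF7. All were followed with the luciferase reporter DR5::Luciferase. The labels give neither an ecotype nor an oscillation phase for the mutants, so genotype and phase cannot be told apart, and the sources used here do not give the allele, its zygosity or the number of roots per sample.

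Root hairs are tubular outgrowths of epidermal cells of the hair (trichoblast) files. They bulge out and then grow at the tip, where vesicles, an actin cytoskeleton, reactive oxygen and phosphoinositide lipids direct new membrane and wall to the apex. Basic helix-loop-helix (bHLH) factors such as RHD6 and RSL4 switch on the genes for this growth, and auxin is known to promote hair elongation. Many of these genes share a short upstream sequence, the root hair element (RHE), a binding site for such factors that was defined from promoters of root hair genes including EXPA7 and EXPA18.

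The upstream sequences are given first. Of the 10 genes, 7 had higher values in both mutants than in the control. A link between the sequences and these values was not tested. The 300 bases before the annotated start of each gene were read from the RefSeq genome assembly TAIR10.1, joined by locus identifier for all 10 members. The files' own build is TAIR10 per the submitters' processing notes, and the files hold no coordinates. An RHE match on either strand was present for 6 of the 10 genes, against 0.915% of 27443 protein-coding genes (251 genes). The matches are printed in the direction of the element, with capitals for its core letters (TG, and further on GCACG).
EXPA7: atagTGatccGCACGta
EXPA18: aacaTGaacGCACGtc
PRP1: atagTGttatGCACGat
PRP3: taagTGtaatGCACGat
LRX1: aactTGgacGCACGtt
LRX2: atatTGataaGCACGtc

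In EXPA7 the match lay from 78 to 62 bases and in EXPA18 from 40 to 25 bases before the start, on the strand of the gene. PRP1 (129 to 113 bases), PRP3 (167 to 151), LRX1 (93 to 78) and LRX2 (257 to 241) carried it on the opposite strand. The LRX2 model begins at its coding start, so its distance is counted from there. No match was found in this window for COW1, ADF8, COBL9 or RBOHC. The ADF8 window overlaps a neighbouring gene, AT4G00690, and the EXPA18 window overlaps AT1G62978. The G-box letters CACGTG were in none of the 10 windows and in 7.09% of all. The element was chosen for the search because these are root hair genes, and the matches in EXPA7 and EXPA18 are not independent of its definition.

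Whole windows are shown for EXPA7, the most abundant of the genes in the control, and for PRP1 and PRP3, the related pair that differed most between the mutants. Capitals mark the RHE match, which in PRP1 and PRP3 reads as its reverse complement.
EXPA7, chr1:4276205-4276504, plus strand: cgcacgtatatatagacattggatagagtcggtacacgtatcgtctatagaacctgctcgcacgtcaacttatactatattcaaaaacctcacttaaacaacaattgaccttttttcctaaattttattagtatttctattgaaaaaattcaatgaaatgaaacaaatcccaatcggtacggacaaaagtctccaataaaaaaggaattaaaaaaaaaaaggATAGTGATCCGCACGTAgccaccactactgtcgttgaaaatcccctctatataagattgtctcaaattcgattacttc
PRP1, chr1:20504601-20504900, plus strand: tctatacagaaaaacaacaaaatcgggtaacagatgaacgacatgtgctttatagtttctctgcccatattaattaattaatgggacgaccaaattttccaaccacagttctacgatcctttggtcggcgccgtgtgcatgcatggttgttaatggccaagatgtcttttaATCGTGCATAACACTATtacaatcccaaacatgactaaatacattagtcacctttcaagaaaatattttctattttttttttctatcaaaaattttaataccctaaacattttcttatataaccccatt
PRP3, chr3:23182422-23182721, plus strand: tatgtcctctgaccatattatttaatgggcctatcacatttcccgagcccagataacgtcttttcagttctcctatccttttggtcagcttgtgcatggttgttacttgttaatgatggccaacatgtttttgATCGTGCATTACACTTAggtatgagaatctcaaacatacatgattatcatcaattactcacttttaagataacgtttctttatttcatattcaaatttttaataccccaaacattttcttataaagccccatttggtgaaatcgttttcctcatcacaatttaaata

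**Figure D1:**
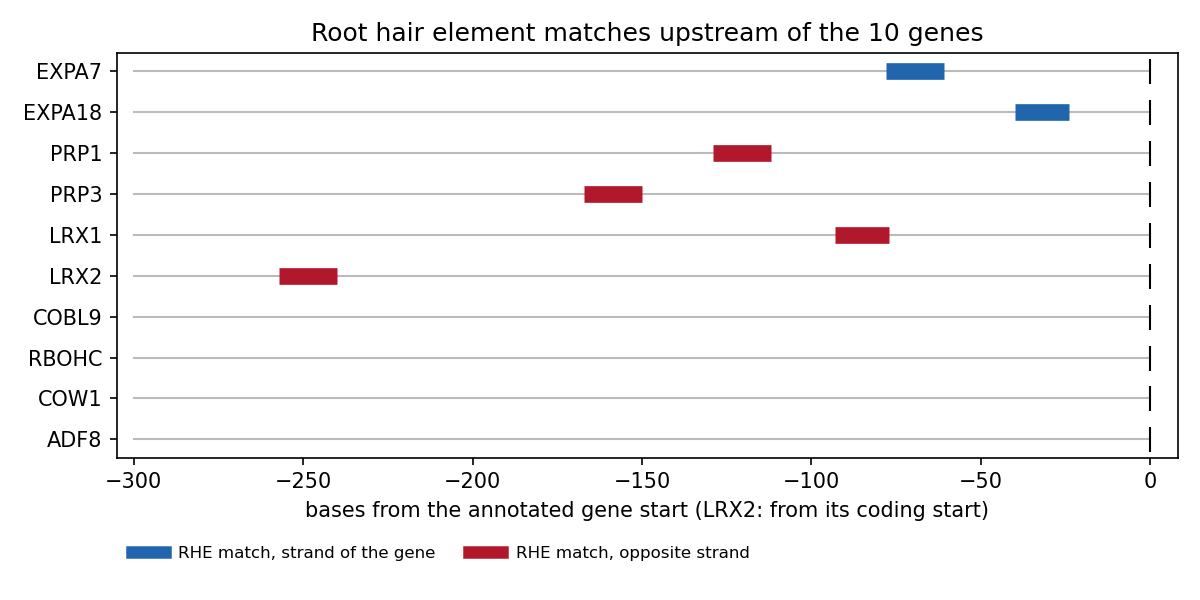
Position of RHE matches in the 300 bases upstream of each of the 10 genes, in bases from the annotated start (vertical tick at 0). Blue blocks lie on the strand of the gene and red blocks on the opposite strand. A match is seen for the expansin, proline-rich and leucine-rich repeat extensin genes, and none for the other 4.

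Levels are given as FPKM, a fragment count divided by transcript length and library total, with 1 value per genotype that the authors combined from 3 samples. No spread between samples can be computed, no test was run here, and the depth is unknown. The words rose and fell are kept for genes found in the authors' deposited table of comparisons, whose q-values are quoted. In potent 7 of the 10 genes rose, and in arf7 6 of them rose, while no member is listed as lower in either. The authors' deposited table lists 3.98% of the 18220 loci with at least 1 FPKM as higher in potent and 2.33% as higher in arf7, and 4.52% and 3.0% as lower. The median difference over the 10 genes on the log2(FPKM + 1) scale was 2.38 for potent and 1.55 for arf7, where all 18220 loci had medians of 0.04 and -0.00. Counted as 2-fold or more on that scale, 7 members were higher in potent and 7 in arf7, beside 20.6% and 15.4% of all loci. The same rule found none lower, beside 16.6% and 13.4%. Both comparisons use the same control samples. In whole tissue pieces, more hair cells and more RNA per hair cell cannot be told apart.

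**Figure D2:**
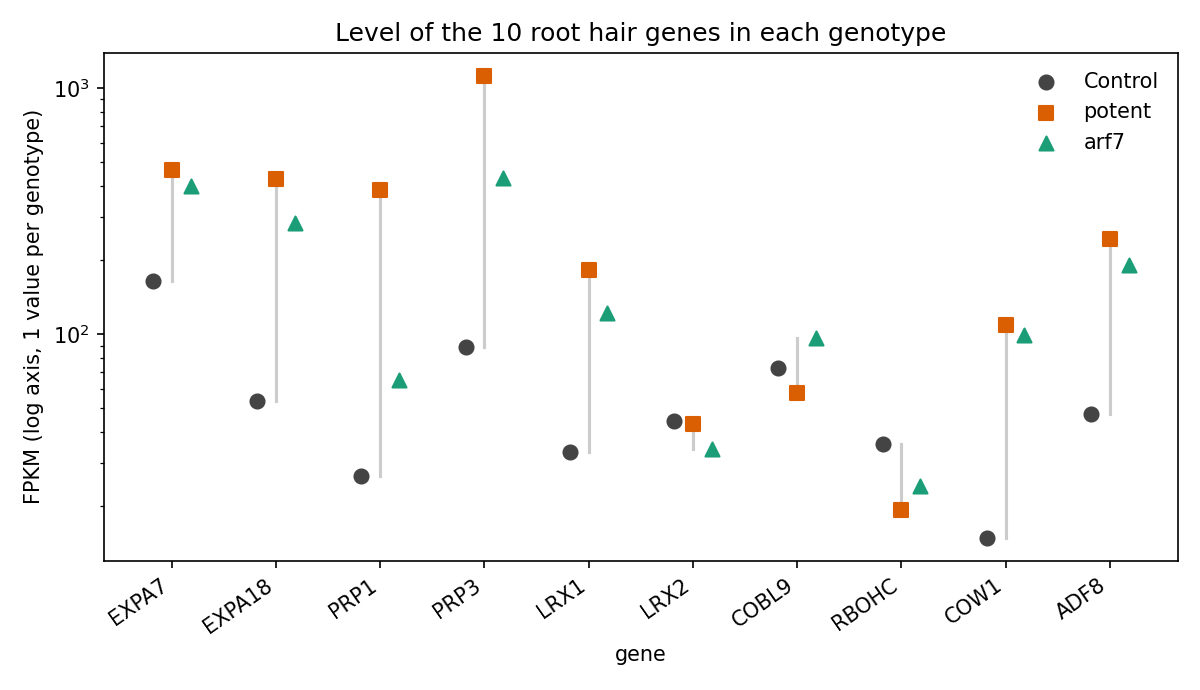
FPKM of each of the 10 genes on a log axis, 1 value per genotype (circle, control; square, potent; triangle, arf7); grey lines span the 3 values. For 7 genes the control is the lowest value and potent the highest, while LRX2, COBL9 and RBOHC stay within a range of 19.4 to 96.5 FPKM.

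The alpha-expansins loosen the wall without cutting its polymers, and EXPA7 and EXPA18 are the forms of root hair cells, present from the time the bulge appears. EXPA7 (AT1G12560) stood at 165 FPKM in the control, compared with 466 in potent and 401 in arf7. It rose 2.82-fold in potent and 2.43-fold in arf7, with q of 0.00269 and 0.00772 in the authors' deposited table, the highest q-values among the members. EXPA18 (AT1G62980) stood at 53.6 FPKM in the control, compared with 429.6 in potent and 282 in arf7, increases of 8.01-fold and 5.26-fold (q of 0.00145 for both in the authors' deposited table). The pair thus came closer in level. EXPA7 exceeded EXPA18 by 3.08-fold in the control, by 1.09-fold in potent and by 1.42-fold in arf7. Their coding sequences were 75.4% identical over 761 aligned bases, and no 50-base window of either transcript was found in another gene. Each overlaps a gene on the other strand, by 23 bases (AT1G12570) and 46 bases (AT1G62978). Those neighbours had at most 0.045 and 1.41 FPKM.

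PRP1 and PRP3 encode proline-rich structural proteins of the root hair wall. PRP3 (AT3G62680) stood at 88.5 FPKM in the control, compared with 1120.2 in potent and 433 in arf7, and rose 12.7-fold and 4.89-fold (q of 0.00145 for both in the authors' deposited table). It moved from the top 9.49% of loci above 0 in the control to the top 0.419% in potent, where it was the highest of the 10 genes. PRP1 (AT1G54970) stood at 26.5 FPKM in the control, compared with 386 in potent and 65.3 in arf7. It rose 14.5-fold in potent, the largest fold among the members (q of 0.00145 in the authors' deposited table). In arf7 its value was 2.46 times that of the control and it is not listed. EXPA7 has a nearly equal ratio in arf7 and is listed, from a higher control level. Among 187 other loci whose control level was within 2-fold of that of PRP1 and whose log2 ratio in arf7 was within 0.2 of it, 22 (11.8%) are listed. Among 38 loci matched to EXPA7 in the same way, 11 (28.9%) are. PRP3 exceeded PRP1 by 3.33-fold in the control, a ratio that was 2.90 in potent and 6.62 in arf7. The coding sequences of this pair were 84.1% identical over 918 aligned bases, with no shared 50-base window between the transcripts. PRP1 and PRP3 together supplied 19.7% of the control's summed FPKM of the 10 genes, a share of 49.3% in potent and 28.5% in arf7.

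LRX1 and LRX2 are leucine-rich repeat extensins, wall proteins with a receptor-like repeat domain and an extensin tail. LRX1 is needed for properly shaped hairs, and loss of LRX2 makes the defect of lrx1 plants worse. LRX1 (AT1G12040) stood at 33.4 FPKM in the control, compared with 183 in potent and 122 in arf7, and rose 5.48-fold and 3.64-fold (q of 0.00145 for both in the authors' deposited table). LRX2 (AT1G62440) stood at 44.3 FPKM in the control, compared with 43.2 in potent and 34.2 in arf7, without a listing in either mutant. The paralogs therefore changed order: the ratio of LRX1 to LRX2 was 0.754 in the control, compared with 4.24 in potent and 3.56 in arf7. Both carry an RHE match, and their coding sequences were 79.0% identical over 2170 aligned bases, again without a shared 50-base window. The sign of the small LRX2 difference in potent was not stable, going from -0.04 to 0.05 on the log2(FPKM + 1) scale when the columns were rescaled without their most abundant loci.

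COBL9, RBOHC, COW1 and ADF8 act in tip growth rather than as structural wall proteins. COBL9 (AT5G49270, also SHV2), a lipid-anchored protein of the COBRA family required for hair elongation, stood at 73.3 FPKM in the control, compared with 57.6 in potent and 96.5 in arf7. It is the only member whose 2 mutant values lay on opposite sides of the control, and it is not listed in either mutant. RBOHC (AT5G51060, also RHD2), the NADPH oxidase that makes reactive oxygen at the hair tip, stood at 35.8 FPKM in the control, compared with 19.4 in potent and 24.3 in arf7. It was the lowest of the 10 in both mutants and is not listed. Its log2 ratios of -0.88 and -0.56 are smaller than any fall in the authors' deposited table, where the smallest is -1.16 in potent and -1.15 in arf7. None of 466 loci matched to it by level and ratio in potent, or of 724 in arf7, is listed. That follows from the same limits, since matched log2 ratios lay within 0.2 of those of RBOHC, and adds no information.

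COW1 (AT4G34580, SFH1 in the authors' deposited table), a Sec14-type phosphatidylinositol transfer protein that organises lipid signals at the tip, was the lowest of the 10 in the control with 14.9 FPKM. Its values of 109 FPKM for potent and 99.2 for arf7 were increases of 7.31-fold and 6.65-fold (q of 0.00145 for both in the authors' deposited table). That is the largest fold of any member in arf7. ADF8 (AT4G00680), an actin-depolymerising factor that severs and turns over filaments, stood at 47.5 FPKM in the control, compared with 243 in potent and 191 in arf7. It rose 5.13-fold and 4.02-fold (q of 0.00145 for both in the authors' deposited table). COW1 and ADF8 rose without an RHE match within 300 bases, and LRX2 did not with one. A part of the element in the levels was not tested.

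Summed over the 10 genes, the FPKM was 583 in the control, compared with 3058 in potent and 1748 in arf7, or 0.0643%, 0.348% and 0.206% of all FPKM in the genotype. Set directly against each other, 8 of the 10 genes had a higher value in potent than in arf7, with a median difference of 0.34 on the log2(FPKM + 1) scale beside 0.02 for all loci. At 2-fold or more there were 2, beside 10.2% of all loci: PRP1, 5.91-fold higher in potent, and PRP3, 2.59-fold higher. None was 2-fold lower, beside 6.67%. For COW1 the ratio of potent to arf7 was 1.10, for EXPA7 1.16, for LRX2 1.26, for ADF8 1.28, for LRX1 1.503 and for EXPA18 1.52. RBOHC (0.7998) and COBL9 (0.596) lay lower in potent. There is no deposited comparison of the mutants, so none of these ratios has an error.

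**Figure D3:**
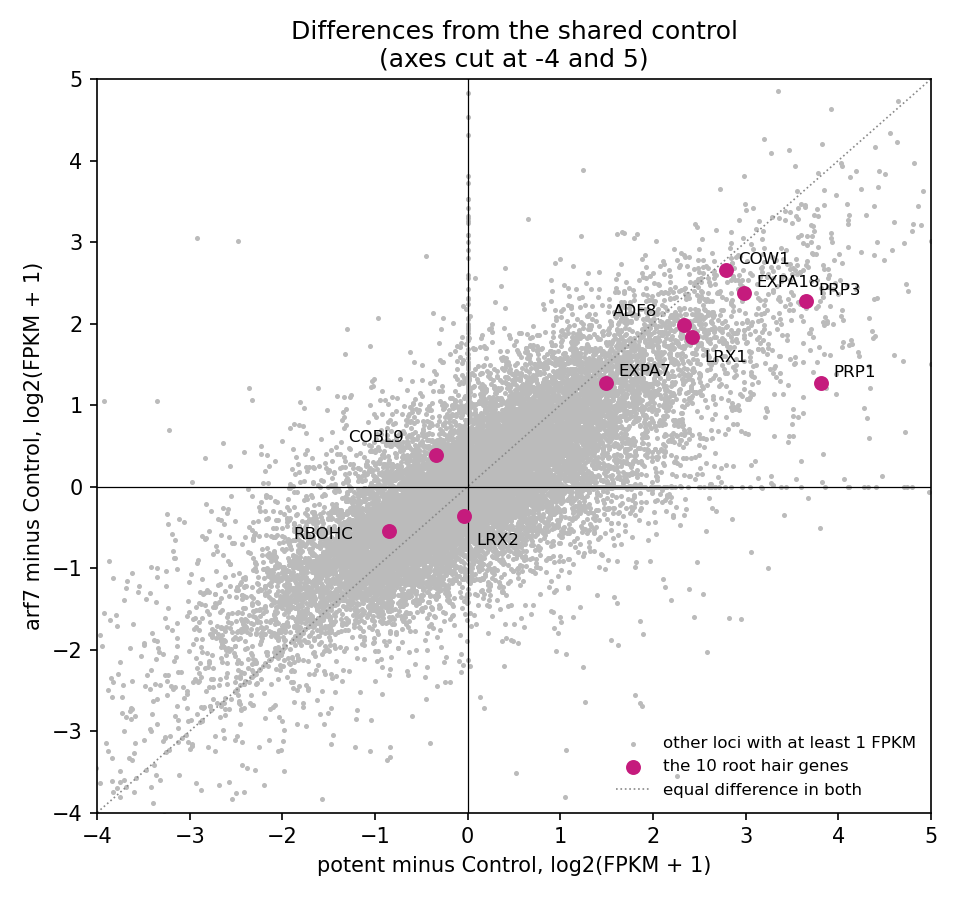
Difference from the control on the log2(FPKM + 1) scale in potent (x axis) and arf7 (y axis) for loci with at least 1 FPKM (grey) and for the 10 genes (magenta); the dotted line marks equal differences, and both axes share the control values. Of the 7 genes at the upper right COW1 is nearest to the line and PRP1 farthest below it, while LRX2, COBL9 and RBOHC lie near the origin.

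Other genes of the root hair were read from lists of loci. Of 8 genes for hair extensins, the rod-like wall glycoproteins, and for wall peroxidases, which cross-link them, 7 rose in both mutants. Of all loci with at least 1 FPKM, 3.98% are listed as higher in potent and 2.33% in arf7. The medians of the 7 with at least 1 FPKM on the log2(FPKM + 1) scale were 3.66 for potent and 2.56 for arf7. EXT12 (AT4G13390) stood at 19.5 FPKM in the control, compared with 276 in potent and 92.3 in arf7. The peroxidase gene RHS19 (AT5G67400) had 78.8, 1185 and 469 FPKM, and the peroxidase gene AT4G26010 had 193, 1289.5 and 872 FPKM. The member that is not listed, the peroxidase gene AT1G05240, was below 0.11 FPKM throughout, and 59.4% of its 50-base windows occur in its near copy AT1G05250, so its value is uncertain. All 4 genes for xyloglucan-modifying enzymes of hairs rose in potent and 2 of them in arf7, beside the same 3.98% and 2.33%. XTH14 (AT4G25820) had 84.6, 1324 and 589 FPKM in the control, potent and arf7. XTH13 (AT5G57540) had 7.75, 144 and 28.9 FPKM, and is listed in potent alone, as PRP1 is. XTH26 (AT4G28850) has a listed 0 in the control, with 64.4 FPKM for potent and 0.739 for arf7.

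A list of signalling, cytoskeleton and trafficking genes of hair polarity and tip growth, without COW1 and ADF8, had 18 genes in the table. None is listed as higher in either mutant, beside 3.98% and 2.33% of all loci. In potent 1 is listed as lower and in arf7 0, beside 4.52% and 3.0% of all loci. The list medians on the log2(FPKM + 1) scale were -0.38 for potent and -0.10 for arf7. At 2-fold or more on that scale 2 genes were higher and 3 lower in potent, beside 20.6% and 16.6% of all loci. In arf7 2 were higher and 0 lower, beside 15.4% and 13.4%. The kinesin gene MRH2 (AT3G54870) had 1.56, 5.08 and 4.22 FPKM in the control, potent and arf7, and the phosphatase family gene BST1 (AT5G65090) had 4.18, 10.6 and 8.82 FPKM. GEF4 (AT2G45890), an activator of ROP GTPases, had 24.9998, 41.7 and 53.2 FPKM. The gene that fell was RHD4 (AT3G51460), a phosphoinositide phosphatase, with 76.7 FPKM in the control, compared with 31.9 in potent and 46.1 in arf7 (listed for potent only; the authors' deposited table gives a log2 fold change of -1.26). The GTPase gene ROP2 (AT1G20090), which marks the site of the bulge, had 137, 155 and 177 FPKM, and its regulator SCN1 (AT3G07880) had 151, 188 and 178 FPKM. ACT2 (AT3G18780), the main actin of hairs, had 1789, 1009 and 1402 FPKM. Lower by 2-fold or more in potent, besides RHD4, were ACT7 (AT5G09810) and GEF3 (AT4G00460), neither being listed. ACT7 had 630, 278 and 446 FPKM and GEF3 19.2, 6.60 and 11.6 FPKM. Of the 6 bHLH genes, LRL3 (AT5G58010) rose in both mutants, with 40.2 FPKM in the control against 195 in potent and 169.7 in arf7. RHD6 (AT1G66470), which acts earliest, fell in potent, from 32.2 to 6.29 FPKM. Its value in arf7 was also below the control, at 10.9 FPKM, without a listing. RSL1 (AT5G37800) had 3.38 FPKM in the control, compared with 0.294 in potent and 0.473 in arf7, and is not listed. RSL4 (AT1G27740), whose level is known to set hair length, had 16.6, 40.3 and 40.02 FPKM and RSL2 (AT4G33880) 21.2, 32.5 and 60.1 FPKM, neither being listed. At 2-fold or more 2 of the 6 bHLH genes were higher and 2 lower in potent, beside 20.6% and 16.6% of all loci. In arf7 4 were higher and 2 lower, beside 15.4% and 13.4%.

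The other genes of the members' protein families were read in the same way. Of 17 other alpha-expansin genes none is listed as higher. For this and the next families, 3.98% of all loci are listed as higher in potent and 2.33% in arf7. The shares listed as lower are 4.52% and 3.0%. EXPA1 (AT1G69530), EXPA9 (AT5G02260) and EXPA17 (AT4G01630) fell in potent, and EXPA1, EXPA9 and EXPA11 (AT1G20190) fell in arf7. EXPA11 had 153 FPKM in the control, 0.745 in potent, where it is not listed, and 19.5 in arf7. EXPA4 (AT2G39700) had 0.669, 83.8 and 9.26 FPKM in the same order and is not listed in either mutant. EXPA9 stood at 201 FPKM in the control, compared with 35.4 in potent and 31.2 in arf7. The list medians of the 15 with at least 1 FPKM were -0.73 and -0.58. At 2-fold or more on the log2(FPKM + 1) scale 3 of them were higher and 7 lower in potent, beside 20.6% and 16.6% of all loci. In arf7 1 was higher and 6 were lower, beside 15.4% and 13.4%. Among the other leucine-rich repeat extensin genes, LRX5 (AT4G18670) fell in both mutants, with 53.6 FPKM in the control against 2.54 in potent and 13.1 in arf7. None of the 8 in the table is listed as higher. LRX6 (AT3G22800) had 0.523, 8.21 and 7.95 FPKM and PEX2 (AT1G49490) 3.62, 8.97 and 11.5 FPKM, neither being listed. Of the 5 with at least 1 FPKM, 2 were 2-fold or more higher and 1 lower in each mutant. Of 9 other NADPH oxidase genes RBOHD (AT5G47910) rose in both, from 1.20 FPKM to 6.88 and 8.502. The 7 of them with at least 1 FPKM had medians of 1.22 and 1.03. At 2-fold or more 4 of the 7 were higher in each mutant, beside 20.6% and 15.4% of all loci. None was lower, beside 16.6% and 13.4%. None of 10 other ADF genes is listed. The 7 with at least 1 FPKM had medians of 0.88 and 0.65, with 5 of the 7 above the control in potent and 6 in arf7. Of all 18220 loci, 9386 were above the control in potent and 8939 in arf7. ADF11 (AT1G01750), also a root hair gene and the closest to ADF8 with 87.7% coding identity over 438 aligned bases, stood at 125 FPKM in the control, compared with 269.7 in potent and 235 in arf7. Of 9 other COBRA family genes COBL7 (AT4G16120) fell in potent, from 14.9 to 4.03 FPKM, and had 2.89 FPKM in arf7, where it is not listed. Of the 4 with at least 1 FPKM, 1 was 2-fold or more higher and 1 lower in each mutant. PRP2 (AT2G21140), at 2.07 FPKM in the control, fell to a listed 0 in potent and had 1.28 FPKM in arf7, where it is not listed. PRP4 (AT4G38770) stood at 0.017 FPKM in the control, compared with 215 in potent and 1.98 in arf7 without being listed.

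**Figure D4:**
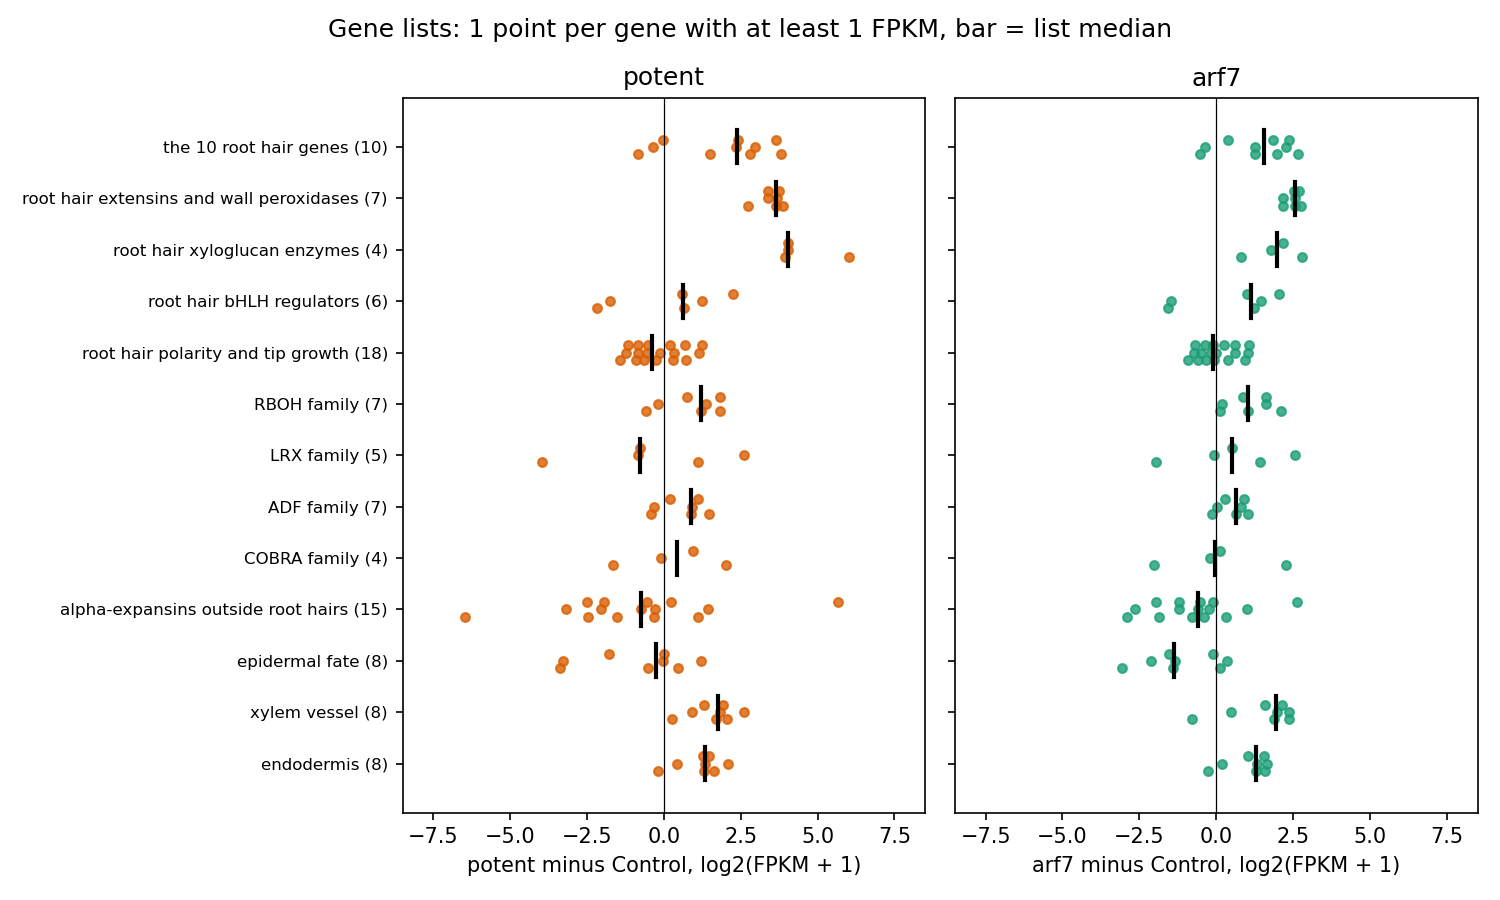
Difference from the control on the log2(FPKM + 1) scale for each gene with at least 1 FPKM, by list, in potent (left) and arf7 (right); black bars are list medians and the number of genes is in parentheses. The 10 genes, the extensins and peroxidases and the xyloglucan enzymes have medians between 1.55 and 4.04. The xylem vessel (1.77 and 1.94), endodermis (1.33 and 1.31) and RBOH (1.22 and 1.03) lists also have medians above 1. The tip growth genes have medians of -0.38 and -0.10.

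Markers of other cell types were counted in the same columns, in which 9386 of the 18220 loci with at least 1 FPKM lay above the control in potent and 8939 in arf7. Of 8 xylem vessel genes, 8 were above the control in potent and 7 in arf7. Their median differences were 1.77 and 1.94 on the log2(FPKM + 1) scale. At 2-fold or more 6 of the 8 were higher in each mutant, beside 20.6% and 15.4% of all loci. None was lower, beside 16.6% and 13.4%. The summed level of the 8 xylem genes was 949 FPKM in the control, compared with 1479 in potent and 1646 in arf7. Most of it came from the cellulose synthase gene CESA4 (852, 1020.3 and 1192 FPKM), so the sum mainly follows that gene. CESA7 (AT5G17420) had 5.01, 20.3 and 21.2 FPKM and CESA8 (AT4G18780) 3.22, 15.1 and 20.6 FPKM, neither being listed. The authors' deposited table lists 2 xylem genes as higher in potent and 3 in arf7, beside 3.98% and 2.33% of all loci. Of 8 endodermis genes 7 were above the control in each mutant, with sums of 3004, 8641 and 7703 FPKM. The authors' deposited table lists 0 of them as higher in potent and 2 in arf7, beside the same shares of all loci. Their median differences were 1.33 and 1.31. At 2-fold or more 6 of the 8 were higher in each mutant and 0 lower. For 7 green shoot genes the sums were 38.8, 140.7 and 79.0 FPKM. Of these 1 is listed as higher in potent and 0 in arf7, beside 3.98% and 2.33% of all loci. The 3 markers of hairless epidermal cells summed to 68.8, 64.5 and 62.1 FPKM, most of it from GL2, while their median differences were -3.27 and -2.12 on the log2(FPKM + 1) scale. WER (AT5G14750) had 12.8 FPKM in the control, with 0.438 for potent and 0.648 for arf7, and is not listed. GL2 (AT1G79840) had 46.7, 64.1 and 60.1 FPKM and MYB23 (AT5G40330) 9.30 FPKM in the control, a listed 0 in potent and 1.37 FPKM in arf7. The part of tissue makeup in the higher values of the hair genes was not tested. ARF7 itself stood at 12.0 FPKM in the control, compared with 9.35 in potent and 2.64 in arf7, and IAA18 had 10.6, 21.8 and 19.1 FPKM.

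The loci most like the 10 genes were sought among 7434 others with at least 20 FPKM in a genotype and none at 0, by distance from the members' median over the 2 differences on the log2(FPKM + 1) scale, which rest on 3 genotype values. The 8 nearest, at distances of 0.0403 to 0.113, were SOT16 (AT1G74100), AT3G44326, MRH6 (AT2G03720), GSR2 (AT1G66200), XTH24 (AT4G30270), THM1 (AT1G03680), AT1G03935 and AT2G36210. MRH6, named after a root hair morphology mutant, stood at 28.3 FPKM in the control, compared with 145 in potent and 85.0 in arf7. SOT16, a sulfotransferase of glucosinolate synthesis, had 51.7, 277 and 150.2 FPKM. The nearest locus to COW1 was MAPKKK14 (AT2G30040), to ADF8 WOX13 (AT4G35550) and to EXPA7 ACR5 (AT2G03730).

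Genes with an RHE match but outside the 10 were counted in the same table, a set chosen after the members' values were seen. Of 154 such genes with at least 1 FPKM, 29.9% were 2-fold or more higher in potent and 22.7% in arf7, where genes without a match gave 19.98% and 14.8%. The shares 2-fold or more lower were 18.8% and 14.9% with a match and 16.1% and 12.9% without. The authors' deposited table lists 7.14% of the genes with a match as higher in potent and 2.60% in arf7, against 4.18% and 2.44% of those without. Most genes, with or without the match, were not 2-fold higher in the mutants, and a part of the element was not tested. RHS13 (AT4G02270) reached the highest level among the 154, with 114 FPKM in the control, compared with 1894 in potent and 771 in arf7.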

How the data were processed

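RNA was sequenced from 9 samples in 3 groups of 3, grouped by sample title. The deposited expression table holds 1 FPKM value per locus and genotype, so the authors had combined the samples; its header names no unit, and FPKM was inferred from Cufflinks and Cuffdiff in the submitters' processing notes (which also list Bowtie, Bowtie2, TopHat, TopHat2 and build TAIR10, without versions). The sources used here give neither annotation release nor library depth. The authors' deposited comparison table has 2577 entries with a log2 fold change and a q-value. For listed members its log2 fold changes differ from log2 ratios of the deposited FPKM by at most 9.9e-06. Its q-values run from 0.00145 to 0.00945.

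With no value per sample, no test was run. Ratios are of deposited FPKM; differences for lists use log2(FPKM + 1), which understates changes of low genes. Background shares use loci with at least 1 FPKM in a genotype. Members and lists were chosen with earlier results of these data known. The text names some genes of each list, listed by the authors or not, and the 8 loci nearest to the members' median. The protocol cited does not mark strand. Gene models, names and sequences came from RefSeq (TAIR10.1, not compared with TAIR10); identity was from global alignment of the longest coding sequences (Biopython 1.88), and shared 50-base windows were exact matches on either strand. Counting and search steps were tested on simulated data. Python 3.11.15, numpy 2.4.6 and pandas 2.3.3 were used. Alternatives were other pseudocounts, scalings, filters, a stricter q and other upstream windows.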

Additional observations from a re-analysis of the deposited data

How the results depend on the processing

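No paired analysis was possible because each genotype has a single combined value, and leaving out replicates could not be run for the same reason. The counts of members 2-fold or more higher (7 in potent, 7 in arf7, 2 in potent against arf7) held under both other pseudocounts and both rescalings. The median difference over the 10 genes in potent was 2.40 with a pseudocount of 0.1, 2.27 with 5, 2.39 after median-ratio scaling and 2.48 after scaling without the 100 highest loci of each genotype. In arf7 it was 1.58, 1.49, 1.56 and 1.70 in the same order. For potent against arf7 it was 0.32 with a pseudocount of 5 and 0.29 after the last scaling. That scaling moved the median of all loci to 0.12 in potent and 0.11 in arf7. Of 120 values of single members under these alternatives 1 reversed, LRX2 in potent, to 0.0535 after the last scaling. At a q of 0.005 or less the authors' deposited table holds 7 members in potent and 5 in arf7, without EXPA7. Upstream windows of 200, 500 and 1000 bases, chosen after seeing the data, gave 5, 6 and 6 members with an RHE match, beside 0.587%, 1.46% and 2.90% of all genes. Depth is unknown, so no detection limit can be given for members that are not listed.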
